A study of Mus musculus with 12 samples.

Results

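The genes of DNA replication and of the G1/S transition were examined in sorted mouse haematopoietic stem cells (HSCs). The 45 genes were chosen by symbol, as the table of deposited values names them, for their roles in replication licensing, helicase activation, DNA synthesis, clamp loading, nucleotide supply, G1/S control and chromatin assembly. They are 45 of 24946 genes used, and all 45 were among the 10816 genes tested. The study holds 12 bulk RNA-seq libraries of bone marrow HSCs from C57BL/6 mice, 3 in each of 4 groups. The groups were Bst2 knockout (KO) mice treated with recombinant mouse interferon-γ (IFN-γ, 100 µg) for 24 h, naive KO mice, wild-type (WT) mice given the same treatment, and naive WT mice. Bst2 codes for tetherin, a membrane protein that interferons induce. All groups share the strain, the tissue and the sort gate, which per the labels kept lineage-, c-Kit+, CD150+, CD48- and CD34- cells. The animals' age, the type of the knockout allele and the tie between libraries and mice are not given in the labels, so a p-value here reflects the spread among libraries, which may be technical.

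Replication is prepared in G1, when the origin recognition complex, Cdc6 and Cdt1 load the Mcm2-7 helicase onto origins. In S phase Cdc45 and the GINS complex activate that helicase, the polymerases α, δ and ε copy DNA with the sliding clamp PCNA, and ribonucleotide reductase and the thymidylate enzymes supply nucleotides. Many of these genes are transcribed in late G1 under E2F factors, and adult HSCs are known for being mostly quiescent. Interferons are known from earlier mouse work to alter HSC cycling.

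Of the 7 genes named for their values whose promoter window holds an E2F-type motif, the 4 with the smallest p-values for IFN-γ averaged over genotypes are shown, since E2F control is what many of these genes have in common outside the measurements. The windows are RefSeq promoter sequences (GRCm38.p6) from 250 bases before to 50 bases from the annotated start on, 300 bases in all, written 5′ to 3′ along the gene. Capitals mark each match to TTTCCCGC, TTTGGCGC, TTTCGCGC or TTTGCCGC on either strand. Mcm3 (chr1:20820263-20820562, minus strand) encodes a helicase subunit, Uhrf1 (chr17:56304063-56304362, plus strand) a factor that brings the maintenance methyltransferase to replicated DNA, Lig1 (chr7:13278576-13278875, plus strand) the ligase of Okazaki fragments and Pold1 (chr7:44548766-44549065, minus strand) the catalytic subunit of polymerase δ.
Mcm3: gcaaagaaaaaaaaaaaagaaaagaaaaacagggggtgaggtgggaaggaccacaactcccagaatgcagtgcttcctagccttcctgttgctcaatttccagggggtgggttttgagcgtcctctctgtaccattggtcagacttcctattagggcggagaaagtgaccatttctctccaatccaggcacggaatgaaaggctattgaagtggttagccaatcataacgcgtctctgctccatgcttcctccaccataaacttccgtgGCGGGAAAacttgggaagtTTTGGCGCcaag
Uhrf1: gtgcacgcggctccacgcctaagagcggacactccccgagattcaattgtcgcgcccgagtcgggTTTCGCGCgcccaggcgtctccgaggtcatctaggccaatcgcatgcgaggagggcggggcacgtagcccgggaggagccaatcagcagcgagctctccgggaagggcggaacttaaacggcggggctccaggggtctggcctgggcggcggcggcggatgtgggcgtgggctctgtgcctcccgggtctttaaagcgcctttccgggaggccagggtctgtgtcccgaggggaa
Lig1: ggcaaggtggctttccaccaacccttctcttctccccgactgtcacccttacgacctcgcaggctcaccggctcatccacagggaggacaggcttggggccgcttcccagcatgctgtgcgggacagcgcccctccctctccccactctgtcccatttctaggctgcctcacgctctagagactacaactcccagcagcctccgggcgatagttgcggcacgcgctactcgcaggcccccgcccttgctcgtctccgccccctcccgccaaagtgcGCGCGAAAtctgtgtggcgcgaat
Pold1: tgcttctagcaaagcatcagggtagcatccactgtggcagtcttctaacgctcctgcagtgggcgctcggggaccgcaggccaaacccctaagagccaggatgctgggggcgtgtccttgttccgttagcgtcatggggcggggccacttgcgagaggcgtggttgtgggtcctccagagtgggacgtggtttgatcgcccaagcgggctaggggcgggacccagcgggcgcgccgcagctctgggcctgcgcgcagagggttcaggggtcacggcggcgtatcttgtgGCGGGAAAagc

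The Mcm3 window held 2 matches, starting at bases 270 and 289, both downstream of the start at base 251. Those of Lig1 and Pold1 held 1 each, at bases 277 and 290, and that of Uhrf1 1 match at base 66, upstream of its start. Uhrf1 and Lig1 also have windows at other annotated starts, which held no match and are not shown. Of the 45 genes, 38 had a window, and 15 of these 38 (39.5%) had a match: E2f2, Uhrf1, Rfc3, Cdc6, Cdt1, Mcm3, Mcm5, Mcm6, Mcm7, Orc1, Pola1, Pold1, Pold3, Pole2 and Lig1. Counted by window, 33.3% of the replication genes' windows held a match, against 4.12% of the windows of all genes tested and 2.27% of all windows in the table. A match is a description of the letters in these windows, not a site shown to be used.

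The deposited values are normalized per gene and are called units here. Library totals lay between 13.8 and 17.7 M units. WT naive 2 was the shallowest, at an estimated 0.495 M reads, and the other 11 libraries had an estimated 8.77 to 52.1 M. Bst2 lay between 0 and 24.8 units in the 6 KO libraries and between 152 and 1514 units in the 6 WT libraries, with no overlap. Titles carry a library code from 1 of 3 series, R-09 (4 libraries, 1 per group), R-07 (2 KO libraries, 1 per treatment) and FL-06 (6 libraries), and what a series stands for is not stated. The R-09 libraries stood apart. Cd34, whose protein the gate excludes, lay between 3098 and 3629 units in R-09 and between 462 and 821 units in the other 8 libraries. Summed over 14 HSC genes, of which 13 were tested, R-09 had 31482 to 37813 units, R-07 24848 to 27360 units and FL-06 23292 to 27553 units. The HSC regulator Hlf lay between 844 and 995 units in R-09 and between 2230 and 3398 units elsewhere. All 10 listed neutrophil genes were higher in R-09 than in FL-06, with summed levels of 94544 to 205274 units in R-09, 10075 to 12363 units in R-07 and 8574 to 14898 units in FL-06. All 4 tested of 7 monocyte and macrophage genes were higher too, with sums of 14628 to 27608 units in R-09 and 892 to 2097 units in FL-06. All 6 tested of 8 erythroid genes were higher in R-09, with sums of 46816 to 84018 units in R-09 and 32500 to 42368 units in FL-06. The R-07 sums were 36486 to 40386 units, so outside R-09, too, the erythroid sums lay above the HSC sums. Genes of G2 and mitosis, a list of 16, summed to 52485 to 59518 units in FL-06, 43485 to 44466 in R-07 and 24944 to 33489 in R-09. How pure or how quiescent the sorted cells were was not tested in any series. Of the 7 mature B and plasma cell genes 3 were tested and 2 were higher in R-09, with sums of 1214 to 1436 units in R-09 and 68.5 to 309 units in FL-06. Of the 7 T and NK genes 5 were in the table and 2 tested, with 1 higher in R-09 and sums of 3264 to 3860 units in R-09 and 33.6 to 346 units in FL-06. Most of the R-09 sum was Nkg7, a granule gene of NK and T cells, while Cd3e, which defines T cells, was at 0 in all 12 libraries. The code series was therefore a term in every model, and the counts and medians are also given within series or without R-09.

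The replication genes had values above 0 in all 12 libraries. In WT naive 2, where 3 reads would be worth 102 units, Orc1 (144 units) and Gins2 (192 units) lay near that floor. Per kilobase of the longest protein-coding transcript (GENCODE M21), Mcm3 reached 4484 units and Pcna, the sliding clamp, 3036 units at most in FL-06 libraries. At the low end, the activator E2f2 reached at most 99.6 and Orc1, the largest subunit of the origin recognition complex, at most 141 units per kilobase in the same libraries. The subunits Mcm2 to Mcm7, which form 1 ring, had unequal levels per kilobase, with a ratio of highest to lowest between 1.78 and 3.28 over the 12 libraries. Mcm4 was the lowest in every library except KO IFN-γ 1, where Mcm5 was lower. Levels per length are approximate, since the sources used here do not say which transcripts the authors' values cover.

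**Figure D1:**
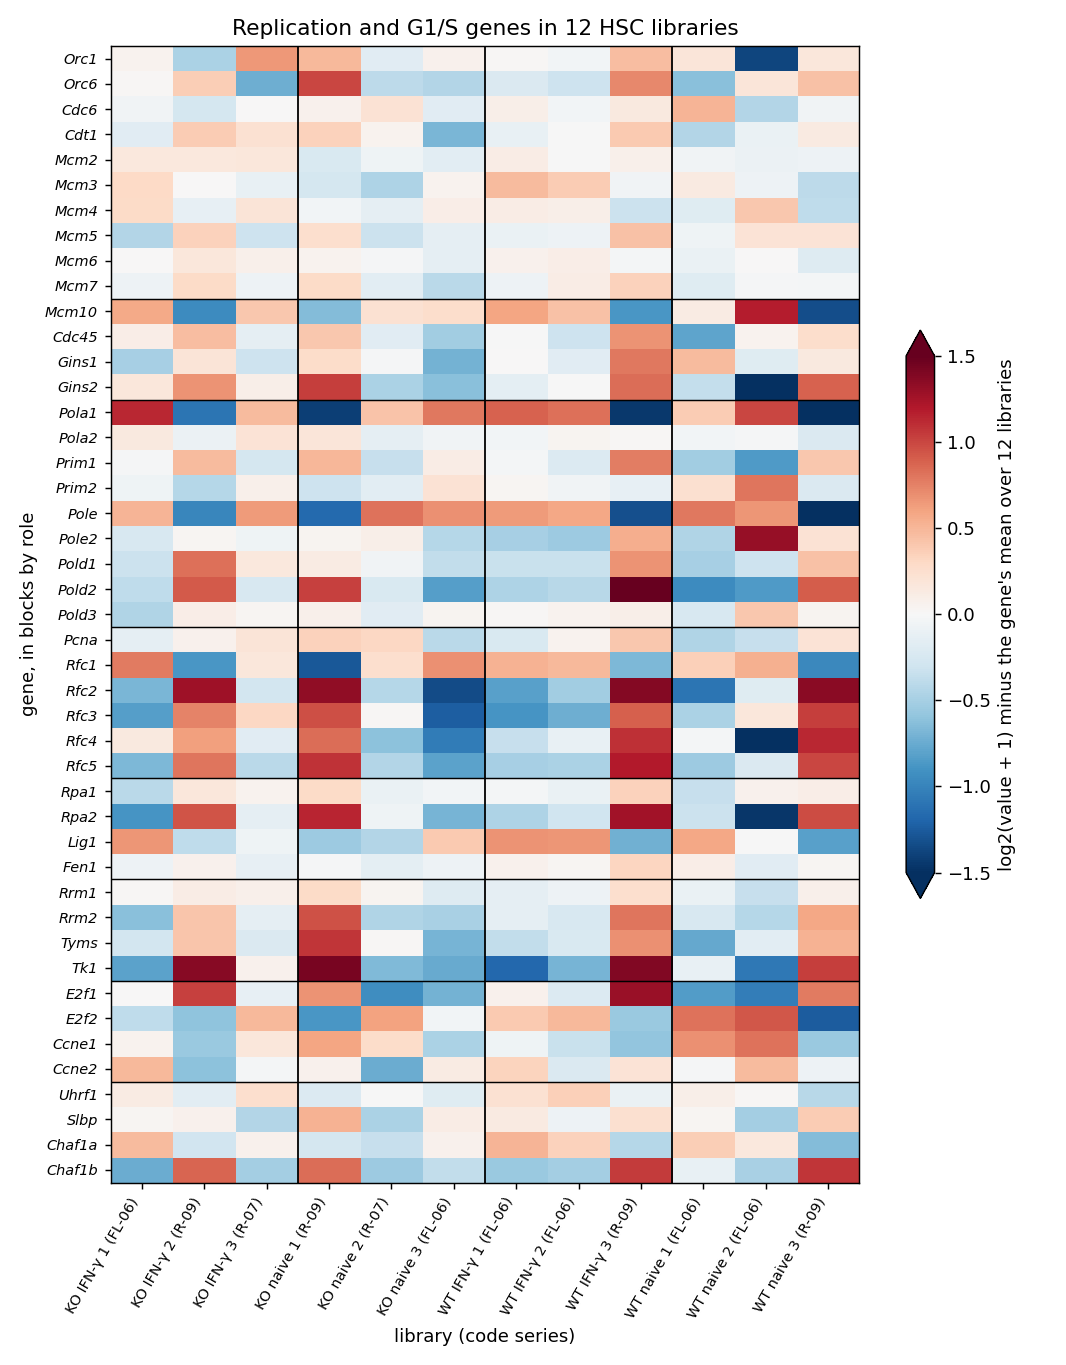
Each row is 1 of the 45 replication and G1/S genes and each column 1 of 12 HSC libraries, with the code series in brackets. Colour gives log2(value + 1) minus that gene's mean over the 12 libraries, and horizontal lines separate the roles. The R-09 columns stand out in all 4 groups, with Rfc2 and Tk1 high and Pola1 and Pole low, while the rows of Mcm2 and Mcm6 vary little.

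The first question was whether IFN-γ moved these genes. After IFN-γ, 33 of the 45 genes had a higher mean than in naive HSCs, averaged over the genotypes, by a median of 0.09 on the log2 scale. The helicase subunits Mcm3 and Mcm2, the transcription factor E2f1, Uhrf1, the polymerase δ subunits Pold1 and Pold2, Lig1 and Chaf1a, a subunit of the histone chaperone CAF-1, had unadjusted p-values under 0.05, all higher after IFN-γ. None of the 45 passed the threshold of 0.05 after Benjamini-Hochberg adjustment over all genes (limma), where 0.0647% of all genes were called. The 8 genes under an unadjusted 0.05 were 17.8% of the 45 and all higher, against 4.05% of all genes higher and 2.01% lower. Of all genes, 61.4% were above 0 in this comparison, with a median of 0.07, so the shift of the replication genes as a whole lay near that of all genes. In bulk libraries, more cells expressing these genes and more of their RNA per cell cannot be told apart. Of the 10 neutrophil genes, 6 had an unadjusted p under 0.05 and were lower after IFN-γ, with 0 past the threshold, and the part of other cells in the replication genes' values was not tested.

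Among the licensing genes, Mcm3 had the smallest p of the 45. Its values were 12106, 9866 and 9080 units in KO IFN-γ libraries, against 8143, 7145 and 10151 units in naive KO libraries. They were 13591, 12761 and 9482 units in WT IFN-γ libraries, against 10802, 9341 and 7499 units in naive WT libraries. The groups overlap as they stand, and within each combination of genotype and code series the IFN-γ library or mean was the higher one. The averaged difference was 0.33 on the log2 scale (SE 0.0650, 1.26-fold, unadjusted p = 0.000332, adjusted p = 0.146, limma). It was 0.25 in KO FL-06, 0.35 in KO R-07, 0.28 in KO R-09, 0.39 in WT FL-06 and 0.34 in WT R-09.

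Mcm2, another subunit of the ring, had 9463, 9459 and 9524 units in KO IFN-γ libraries, against 7246, 8078 and 7557 units in naive KO libraries. In WT it had 9146, 8402 and 8912 units in IFN-γ libraries, against 8158, 7936 and 8053 units in naive ones. In both genotypes every IFN-γ library lay above every naive library. Mcm2 was the 1 gene of the 45 of which this held, in KO (1.22% of all genes) and in WT (2.1%), and no gene of the 45 lay below in this way, against 0.971% of all genes in KO and 1.22% in WT. Group means were 9482 ± 36.4 units for KO IFN-γ, 7627 ± 421 units for KO naive, 8820 ± 380 units for WT IFN-γ and 8049 ± 111 units for WT naive (SD, n = 3 each). The averaged difference was 0.22 (log2, SE 0.0596, 1.17-fold, unadjusted p = 0.00323, adjusted p = 0.436, limma). The KO difference was 0.32 (log2, SE 0.0843, unadjusted p = 0.00325, adjusted p = 1.00, limma).

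Mcm6, the licensing gene with the highest mean, had 12116, 13613 and 12773 units in KO IFN-γ libraries, against 12510, 11922 and 10987 units in naive KO libraries. Its WT values were 12651, 12990 and 11872 units with IFN-γ, against 11310, 12154 and 10556 units in naive HSCs. The difference of 0.13 (log2, SE 0.0688, unadjusted p = 0.0822, limma) was small, and the groups overlap in both genotypes. The 7 other licensing genes, which encode origin recognition subunits (Orc1, Orc6), loading factors (Cdc6, Cdt1) and helicase subunits (Mcm4, Mcm5, Mcm7), had averaged differences between -0.06 (Orc6) and 0.23 (Cdt1). Of the genes of helicase activation, Mcm10, a replisome scaffold, had 2482, 866 and 2204 units in KO IFN-γ libraries and 1065, 1956 and 1999 units in naive KO libraries. It had 2512, 2268 and 912 units in WT IFN-γ libraries and 1820, 3782 and 662 units in naive WT libraries. The averaged difference was 0.06 (log2, SE 0.187). Its sign turned when WT naive 1 (-0.03), WT naive 3 (-0.05) or KO naive 3 (-0.03) was left out. The other genes of this role, Cdc45, Gins1 and Gins2, had averaged differences between 0.00 (Gins1) and 0.54 (Gins2). None of the 4 had an unadjusted p under 0.05 (limma). The WT FL-06 difference of Gins2 was 1.14, and 0.28 without WT naive 2, the shallowest library.

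E2f1, a transcription factor that drives G1/S genes, showed the largest averaged difference of the 45 genes. Its values were 844, 1713 and 772 units in KO IFN-γ libraries, against 1334, 438 and 514 units in naive KO libraries. In WT they were 874, 727 and 2058 units with IFN-γ, against 467, 408 and 1436 units in naive HSCs. The highest value in each group came from its R-09 library, so the groups overlap, while within each code series the IFN-γ value was higher. The averaged difference was 0.69 (log2, SE 0.143, 1.61-fold, unadjusted p = 0.000534, adjusted p = 0.186, limma). The differences within genotype and series ran from 0.36 in KO R-09 to 0.87 in WT FL-06. Ccne1, which encodes cyclin E1, lay on the other side of 0. It had 1119, 729 and 1206 units in KO IFN-γ libraries, against 1623, 1306 and 776 units in naive KO libraries, and 1027, 853 and 713 units in WT IFN-γ libraries, against 1725, 1889 and 729 units in naive WT libraries. The averaged difference of -0.44 (log2, SE 0.249, unadjusted p = 0.102, adjusted p = 0.799, limma) did not pass, and by series it ranged from -1.15 in KO R-09 to 0.53 in KO FL-06. E2f2 and Ccne2 (cyclin E2) had averaged differences of -0.06 and 0.06.

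**Figure D2:**
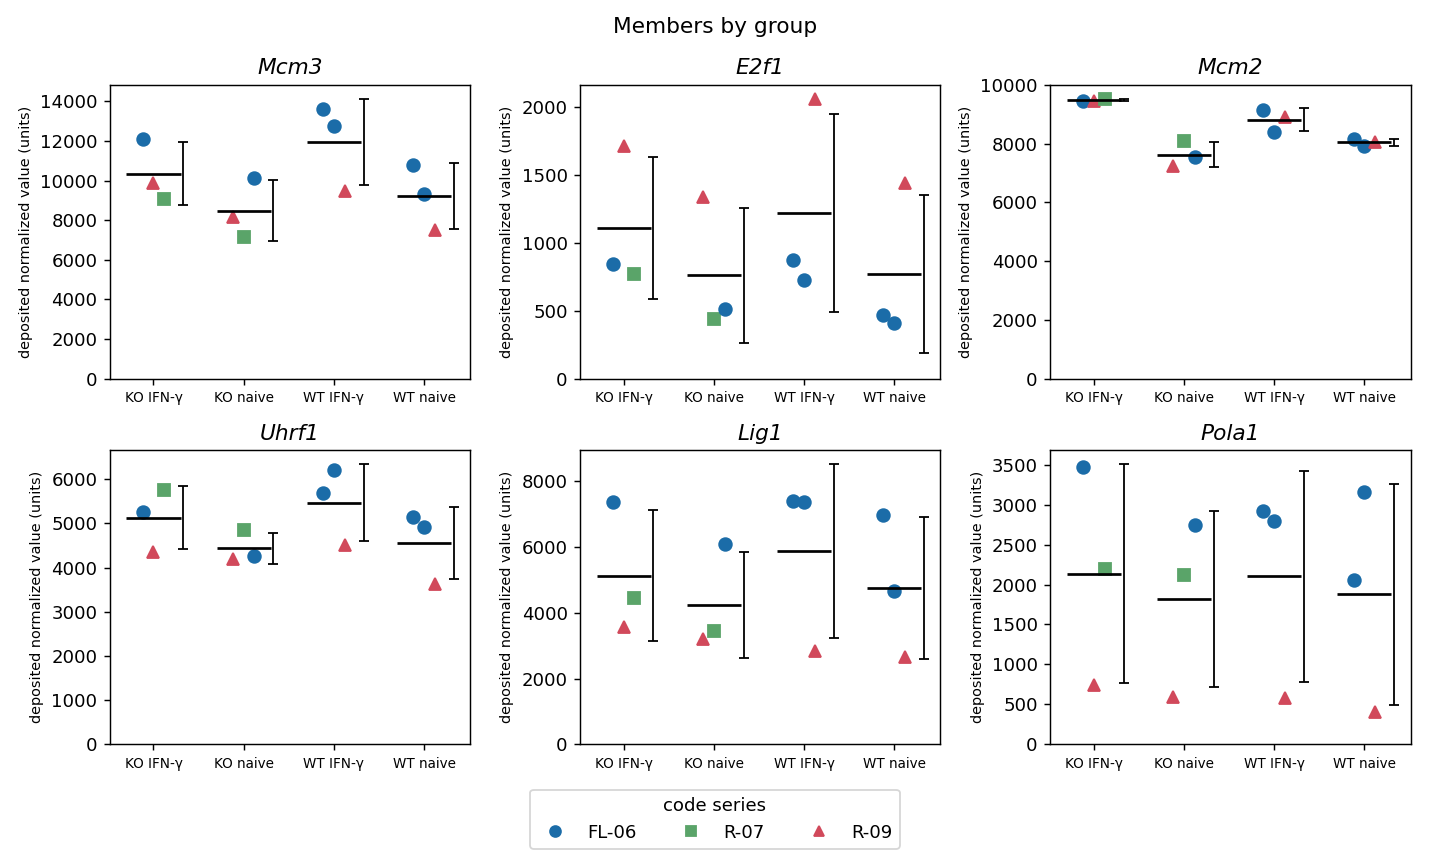
Deposited values (units, axis from 0) of 6 genes in each of the 12 libraries, by group. Colour and shape give the code series, horizontal lines the group mean and bars the SD (n = 3). Mcm2 separates IFN-γ from naive libraries in both genotypes, whereas in E2f1 and Pola1 the R-09 libraries lie far from the others of their group.

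For the polymerase genes, Pold2 had 1330, 3292 and 1470 units in KO IFN-γ libraries and 3541, 1475 and 975 units in naive KO libraries. In WT it had 1253, 1300 and 4900 units with IFN-γ and 898, 962 and 3262 units in naive HSCs. The WT difference was 0.50 (log2, SE 0.151, unadjusted p = 0.00681, adjusted p = 0.588, limma), with 0.46 in FL-06 and 0.59 in R-09. Prim1, the catalytic primase subunit, differed in WT by 0.50 as well (log2, SE 0.184, unadjusted p = 0.0200, adjusted p = 0.630, limma), and in KO by -0.02. Pold1 had 2667, 5878 and 3709 units in KO IFN-γ libraries, 3611, 3197 and 2577 units in naive KO libraries, 2626, 2639 and 5279 units in WT IFN-γ libraries and 2353, 2685 and 4502 units in naive WT libraries. Its averaged difference was 0.22 (log2, SE 0.0948, unadjusted p = 0.0394, adjusted p = 0.795, limma). Over the 9 primase and polymerase genes the averaged differences ran from -0.26 for Pole2, the second subunit of polymerase ε, to 0.31 for Pold2.

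The clamp Pcna had 4045, 4663 and 5072 units in KO IFN-γ libraries, against 5643, 5537 and 3376 units in naive KO libraries. In WT it had 3804, 4608 and 5872 units with IFN-γ, against 3257, 3491 and 5136 units in naive HSCs. IFN-γ and naive libraries overlap in both genotypes, and the averaged difference was 0.11 (log2, SE 0.0880). The clamp loader genes Rfc1 to Rfc5 had averaged differences between -0.16 (Rfc3) and 0.41 (Rfc4). Lig1 had 7375, 3576 and 4457 units in KO IFN-γ libraries, 3197, 3447 and 6106 units in naive KO libraries, 7420, 7389 and 2830 units in WT IFN-γ libraries and 6983, 4653 and 2644 units in naive WT libraries. Its averaged difference was 0.28 (log2, SE 0.106, unadjusted p = 0.0246, adjusted p = 0.795, limma), positive in all 5 combinations of genotype and series. Rpa1 and Rpa2, subunits of the single-strand binding protein, and Fen1, the flap nuclease, differed by 0.01, 0.14 and 0.09.

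Rrm1, the large subunit of ribonucleotide reductase, had 6622, 7087 and 6912 units in KO IFN-γ libraries, against 8008, 6739 and 5729 units in naive KO libraries. Its WT values were 5994, 6220 and 7799 units with IFN-γ, against 6112, 5162 and 6912 units in naive HSCs. The averaged difference of 0.08 (log2, SE 0.0739) is close to its SE. The other nucleotide genes, Rrm2 (the small subunit), Tyms (thymidylate synthase) and Tk1 (thymidine kinase), had averaged differences between 0.01 and 0.05. Uhrf1 had 5269, 4358 and 5762 units in KO IFN-γ libraries, 4201, 4846 and 4273 units in naive KO libraries, 5687, 6209 and 4510 units in WT IFN-γ libraries and 5137, 4921 and 3624 units in naive WT libraries. Its averaged difference was 0.23 (log2, SE 0.0777, unadjusted p = 0.0118, adjusted p = 0.761, limma), positive in all 5 combinations. Among the other chromatin genes, Slbp, which binds histone mRNA stem-loops, differed by -0.02, and the CAF-1 subunit genes Chaf1a and Chaf1b by 0.23 and -0.13.

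**Figure D3:**
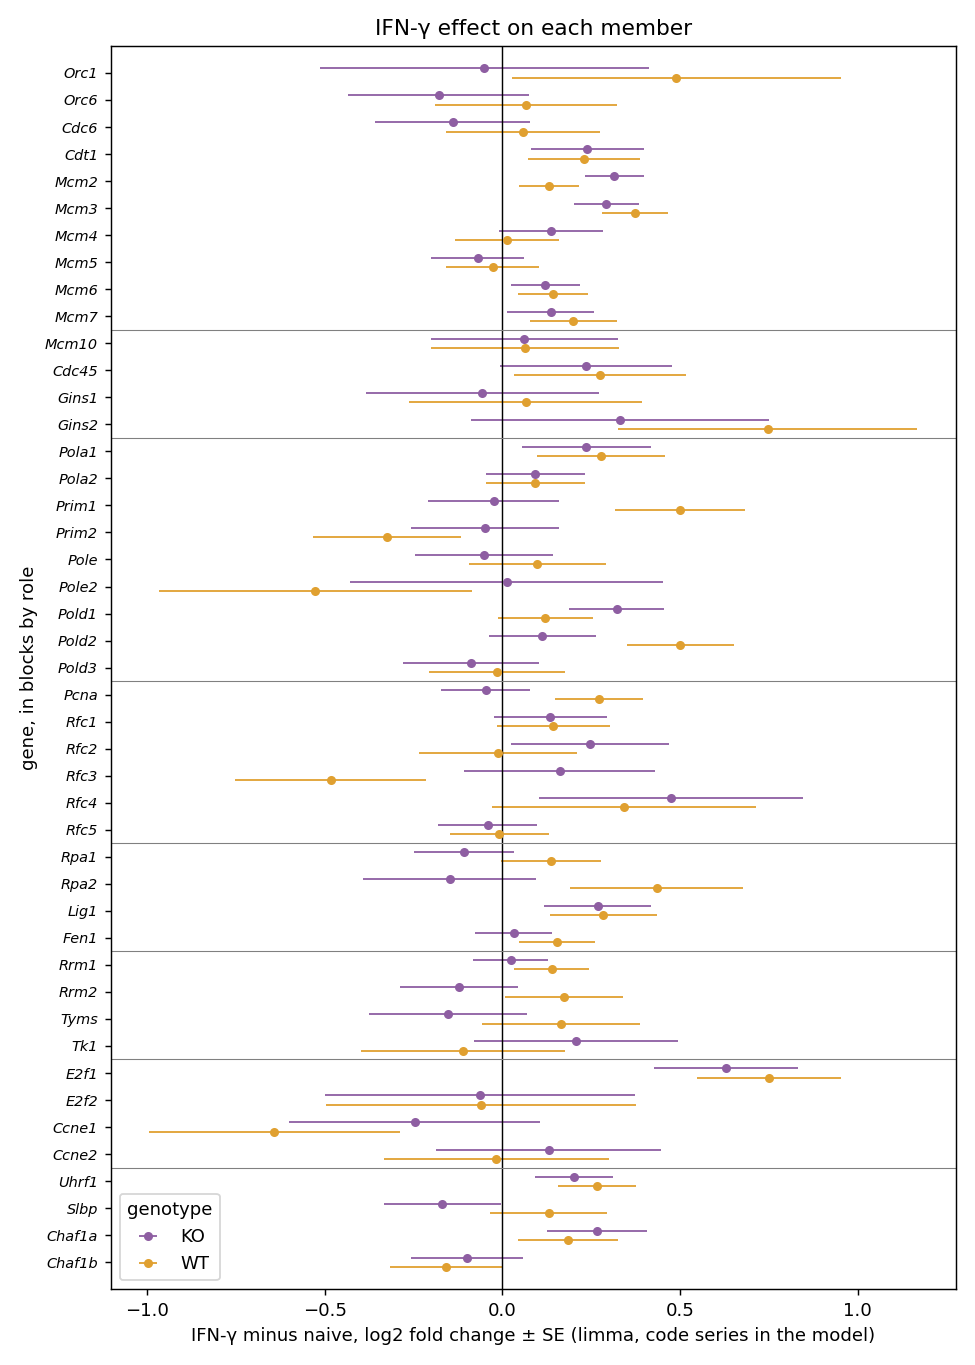
IFN-γ minus naive difference of each of the 45 genes (x axis, log2 fold change, points with SE bars from the limma model with the code series as a term), for KO and WT HSCs, in blocks by role. Mcm3, Mcm2 and E2f1 lie right of 0 in both genotypes, and none of the 45 passed the adjusted threshold in either.

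Taken by genotype, 26 of the 45 genes were above 0 in KO HSCs (median 0.06 on the log2 scale), against 51.0% of all genes (median 0.01). In WT HSCs 33 were above 0 (median 0.14), against 62.2% of all genes (median 0.11). Without the R-09 libraries the counts were 33 in KO and 27 in WT. None passed the adjusted threshold in KO, where 0% of all genes did, or in WT, where 0.00925% did (limma). Unadjusted p-values under 0.05 were found for 4 genes in KO (Mcm2, Mcm3, E2f1 and Pold1) and 5 in WT (Mcm3, E2f1, Pold2, Prim1 and Uhrf1), all higher with IFN-γ. The backgrounds were 1.69% of all genes higher and 1.25% lower in KO, and 5.7% higher and 1.74% lower in WT.

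Direction was also counted within each combination of genotype and code series, of which 5 hold both treatments. Of the 45 genes, 10 were higher with IFN-γ in all 5 combinations (22.2%): Cdt1, Mcm2, Mcm3, Mcm6, Cdc45, Pola1, Pold1, Lig1, E2f1 and Uhrf1. Of all genes 4.52% were higher in all 5 and 2.98% lower, and none of the 45 was lower in all 5. Without WT naive 1 the count was 7, against 4.12% of all genes. Cdc45, a helicase cofactor, Pola1, the catalytic subunit of polymerase α, and Pold1 no longer met it. Without the R-09 libraries, 3 combinations remained, and 16 of the 45 were higher in all 3, against 17.6% of all genes. Lower in all 3 were 2 of the 45 (Pole, a polymerase ε subunit, and E2f2). The share of all genes lower in all 3 was not counted, so nothing is drawn from these 2. The median over the 45 genes was 0.21 in KO FL-06, 0.10 in KO R-07, -0.07 in KO R-09, 0.08 in WT FL-06 and 0.24 in WT R-09. In KO R-09 17 of the 45 were above 0, against 47.6% of all genes, and in WT R-09 39 were, against 51.5%. Each of these medians except that of WT FL-06 compares 1 library with 1 library and has no replicate check.

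The next question was whether loss of Bst2 moved these genes. In naive HSCs, 23 of the 45 genes were higher in KO than in WT (median 0.03 on the log2 scale), against 57.9% of all genes (median 0.07). The direction turned with the series. Within R-09 34 were higher in KO (median 0.15), against 51.3% of all genes. Within FL-06 15 were (median -0.09), against 57.2%, and 12 were without the R-09 libraries. After IFN-γ 15 were higher in KO (median -0.05), against 44.4% of all genes (median -0.04). Within R-09 11 were higher in KO (median -0.16), against 46.4% of all genes. Within FL-06 23 were (median 0.00), against 47.1%, as were 23 without the R-09 libraries. No gene of the 45 passed the threshold in naive or in treated HSCs, where 0% of all genes did in either (limma). In naive HSCs 1 gene was higher and 1 lower at an unadjusted p under 0.05, against 3.93% of all genes higher and 2.56% lower, and in treated HSCs none was, against 0.823% higher and 1.27% lower.

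Prim1 was the higher one of these in naive HSCs, with 1797, 1001 and 1370 units in naive KO libraries, against 884, 706 and 1681 units in naive WT libraries. The difference was 0.48 (log2, SE 0.197, unadjusted p = 0.0340, adjusted p = 0.707, limma), or 0.79 within FL-06 and 0.10 within R-09. In IFN-γ libraries Prim1 had 1257, 1767 and 1056 units in KO, against 1243, 1105 and 2162 units in WT. KO and WT overlap under both treatments. In naive HSCs no gene of the 45 had all KO libraries above all WT libraries (1.41% of all genes) or below them (0.934%). Rfc3, a clamp loader subunit, was the lower one. It had 1223, 631 and 265 units in naive KO libraries, against 448, 704 and 1277 units in naive WT libraries, and 351, 1049 and 776 units in KO IFN-γ libraries, against 337, 375 and 1161 units in WT IFN-γ libraries. The naive difference was -0.68 (log2, SE 0.287, unadjusted p = 0.0369, adjusted p = 0.707, limma), with -1.08 in FL-06 and -0.06 in R-09.

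Pola1 was higher in KO than in WT in all 4 combinations of treatment and series that hold both genotypes. Its values were 3476, 741 and 2196 units in KO IFN-γ libraries and 2925, 2801 and 579 units in WT IFN-γ libraries. They were 594, 2122 and 2742 units in naive KO libraries and 2063, 3163 and 408 units in naive WT libraries. It was the 1 gene of the 45 with this pattern, against 6.68% of all genes, and 5 were lower in KO in all 4 (Prim2, the large primase subunit, Rfc2, Rfc3, Fen1 and Chaf1b), against 5.85%. The naive difference of Pola1 was 0.32 (log2, SE 0.193, unadjusted p = 0.124, adjusted p = 0.714, limma).

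In treated HSCs the smallest unadjusted p-values among the 45 belonged to Rrm2, Rfc5 and Pcna, all lower in KO. Rrm2 had 1330, 2735 and 1863 units in KO IFN-γ libraries, against 1871, 1738 and 3596 units in WT IFN-γ libraries, a difference of -0.32 (log2, SE 0.177, unadjusted p = 0.0972, limma). Rfc5 had 1420, 3963 and 1711 units in KO IFN-γ libraries, against 1607, 1630 and 5198 units in WT IFN-γ libraries, a difference of -0.26 (log2, SE 0.15, unadjusted p = 0.112, limma). The Pcna difference was -0.22 (log2, SE 0.133, unadjusted p = 0.134, limma). KO and WT libraries overlap for all 3 genes, and the adjusted p was 1.00 for each. Mcm2 was the 1 gene of the 45 with every KO IFN-γ library above every WT IFN-γ library (1.44% of all genes), by 9459 units at the lowest in KO against 9146 units at the highest in WT.

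Whether the IFN-γ effect differed between the genotypes was tested as an interaction. None of the 45 genes passed the threshold, where 0% of all genes did, and none had an unadjusted p under 0.05, against 1.15% of all genes higher and 2.25% lower (limma). The KO effect was the larger for 14 of the 45, against 39.8% of all genes, and the median difference of effects was -0.04 (all genes -0.11). This count was 26 without the R-09 libraries, 24 with equal totals and 22 after quantile normalization. The smallest p-values belonged to Prim1 (-0.52, SE 0.260, unadjusted p = 0.0691), Pold2 (-0.39, SE 0.213, unadjusted p = 0.0960) and Pcna (-0.32, SE 0.176, unadjusted p = 0.0970), each with an adjusted p of 0.933 by limma. Over the 45 genes the differences of effects ran from -0.58 (Rpa2) to 0.64 (Rfc3). For Rpa2, chosen after its values were seen, the difference was -0.58 (log2, SE 0.344, unadjusted p = 0.118, limma). It had 722, 2580 and 1222 units in KO IFN-γ libraries, 2946, 1276 and 824 units in naive KO libraries, 971, 1091 and 3191 units in WT IFN-γ libraries and 1068, 485 and 2645 units in naive WT libraries. Within series it was lower with IFN-γ in all 3 KO combinations and higher in both WT ones, but the WT FL-06 difference of 0.52 was -0.05 without WT naive 2, the shallowest library.

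The widest differences among these libraries ran with the code series. Between R-09 and FL-06, 23 of the 45 genes were higher in R-09 and 11 lower (limma, adjusted p under 0.05), where 35.6% of all genes were higher and 32.3% lower, 68% in all. The split was 26 higher and 7 lower after quantile normalization and 28 higher and 6 lower after scaling to equal totals. The median over all genes moved as well, from 0.23 (log2) to 0.25 after quantile normalization and 0.50 with equal totals. Calls over all genes were not counted by direction under these scalings. All 4 nucleotide genes and 5 of the 6 clamp and clamp loader genes were higher in R-09. Of the 10 licensing genes 4 were higher and 2 lower, and of the 9 primase and polymerase genes 3 were higher and 3 lower. Of the 45 genes, 20 had every R-09 library above all FL-06 libraries (31.8% of all genes) and 8 below (28.2%). With R-07 among the others, 16 had every R-09 library above the other 8 (29.3%) and 5 below (26%), which were Mcm10, Pola1, Pole, Rfc1 and E2f2.

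Pola1 had the largest difference. It had 741, 594, 579 and 408 units in the R-09 libraries, against 2063 at the lowest, 2863 at the median and 3476 units at the highest in the 6 FL-06 libraries. The fold was 0.194 (log2 -2.36, SE 0.145, adjusted p = 6.75e-08, limma). Rfc2, a clamp loader subunit, had 5968, 6226, 6449 and 6349 units in R-09, against 981, 1479 and 2187 units as the lowest, median and highest in FL-06, a fold of 4.41 (log2 2.14, SE 0.178, adjusted p = 8.77e-07, limma). Tk1 had 2445, 2560, 2487 and 1945 units in R-09, against 420, 554 and 879 units as the lowest, median and highest in FL-06, a fold of 4.17 (log2 2.06, SE 0.230, adjusted p = 1.07e-05, limma). Neither overlaps with FL-06. Pole, the catalytic subunit of polymerase ε, had a fold of 0.250 (adjusted p = 4.74e-07, limma), with 504 to 931 units in R-09 and 2597 to 3170 units in FL-06. Mcm2, Mcm6 and Cdc6 differed by -0.01, 0.00 and 0.02 on the log2 scale.

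These differences moved with transcript length. The 23 genes higher in R-09 had a median length of 2189 nt, the 11 lower ones 4739 nt and the 11 others 3006 nt, for the longest protein-coding transcript. Over all genes tested with a length, the medians were 2108, 4844 and 3283 nt for higher, lower and other genes. Of the 5 replication genes up to 1500 nt, 4 were higher in R-09 and 0 lower, and of the 9 above 4500 nt 2 were higher and 6 lower. Among all genes 68.7% of those up to 1500 nt were higher, and 66.9% of those above 4500 nt were lower. Spearman's rho between the R-09 difference and length was -0.56 over the 45 genes and -0.58 over 10506 genes. It is a description across genes, which share the same libraries. Rfc2 departed from the pattern at 4995 nt, and which of its transcripts the values cover is not stated. The IFN-γ difference had a rho with length of 0.14 over the 45 genes. The part that length, the depth of the libraries or the neutrophil and monocyte genes have in the R-09 difference was not tested.

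**Figure D4:**
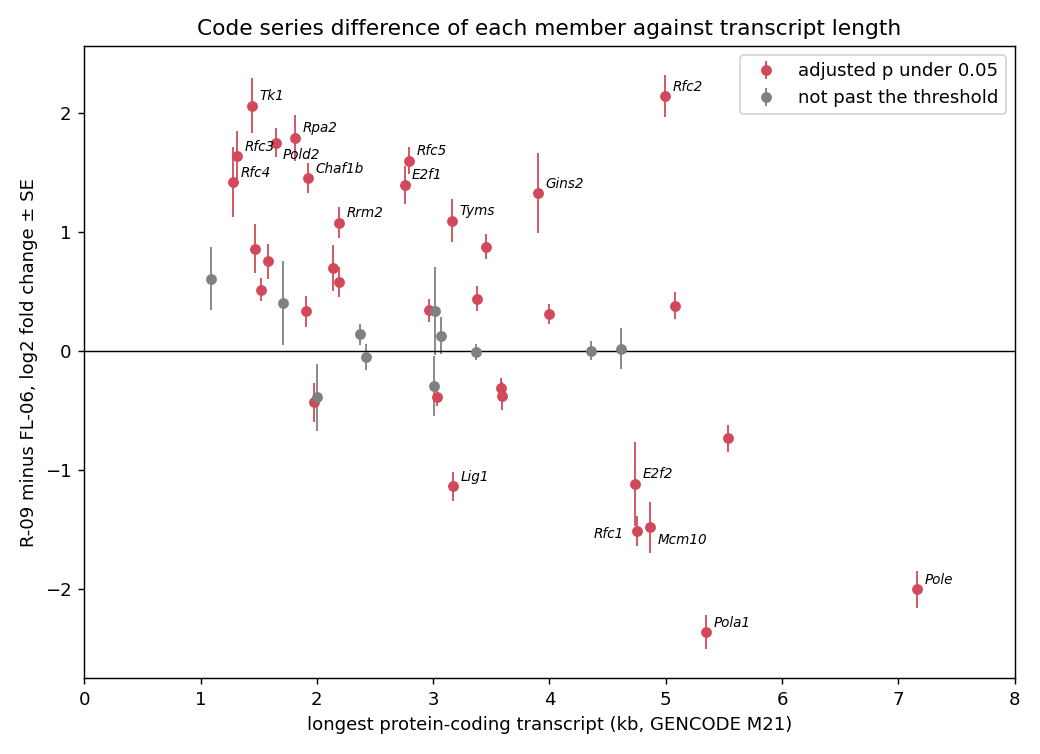
R-09 minus FL-06 difference of each of the 45 genes (y axis, log2 fold change with SE bars, limma) against the length of its longest protein-coding transcript (x axis, kb). Short genes such as Tk1 lie above 0, and the long genes Pola1 and Pole below. Rfc2 lies high at about 5 kb.

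R-07 differed less from FL-06. The 2 R-07 libraries, both KO, were lower for 2 of the 45 genes and higher for 0 (limma), where 3.57% of all genes were called, 3.03% lower and 0.536% higher. Lig1 had 4457 and 3447 units in R-07, against 4653, 7179 and 7420 units as the lowest, median and highest in FL-06 (log2 -0.85, SE 0.170, adjusted p = 0.0198, limma). Mcm3 differed by -0.50 (log2, SE 0.104, adjusted p = 0.0235, limma), with 9080 and 7145 units in R-07 against 9341 to 13591 units in FL-06. Both genes lie below all FL-06 libraries. The 2 calls rest on few libraries: 0 of the 45 were called without KO naive 2, KO naive 3, KO IFN-γ 1 or KO IFN-γ 3. The count was 1 without WT IFN-γ 1 or WT IFN-γ 2, and 8 without WT naive 2. Calls over all 10816 genes ran from 2 to 932 when 1 library was left out, so nothing about the 45 is drawn from these counts. Rfc3 and Rpa2 were higher in R-07 by 1.07 and 0.67 (log2, SE 0.305 and 0.276, adjusted p = 0.0902 and 0.267, limma). Rfc3 had 776 and 631 units in R-07 against 265, 363 and 704 units as the lowest, median and highest in FL-06, which overlap.

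Another 64 replication and G1/S genes were tested to set the 45 in their pathway, among them licensing regulators, D cyclins, DNA methyltransferase 1 and further polymerase subunits. None of the 64 passed the threshold in the comparisons of treatment or genotype (limma). Averaged over genotypes, 5 were higher and 1 lower with IFN-γ at an unadjusted p under 0.05, with a median of 0.12 on the log2 scale, where 4.05% of all genes were higher and 2.01% lower. Dnmt1, the maintenance methyltransferase, differed by 0.25 (SE 0.0742, unadjusted p = 0.00631, limma). Cdk4, the kinase of the D cyclins, differed by 0.24 (SE 0.0758, unadjusted p = 0.00870, limma). The lower one was Gins4, a subunit of the helicase activator (-0.32, SE 0.135, unadjusted p = 0.0349, limma). In naive HSCs 9 of the 64 were higher in KO than in WT at an unadjusted p under 0.05 and 0 lower, where 3.93% of all genes were higher and 2.56% lower. The smallest p belonged to Tfdp2, a dimerization partner of E2F factors (0.72, SE 0.163, unadjusted p = 0.00104, adjusted p = 0.707, limma). In R-09 against FL-06, 21 of the 64 were higher and 28 lower, where 35.6% of all genes were higher and 32.3% lower.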

How the data were processed

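Bulk RNA-seq of 12 sorted HSC libraries was analysed. The values used are a normalized signal per gene, as deposited by the authors, with no values below 0 and not in whole reads. The submitters' processing notes name STAR and DESeq but no versions. Genome build, annotation and strand handling were not given in the sources used here. Overlapping and antisense genes therefore cannot be told apart. Of 24972 rows, 26 with names turned into dates were dropped. At a tolerance of 0.01, only 2.03 to 4.43% of the values above 0 per library were whole multiples of a step. Whole reads could therefore not be recovered and count models were not applied. No pair of libraries held identical values. Depths follow from those steps and are rough.

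Values were tested as log2(value + 1), a scale that understates changes of low genes, for genes with at least 100 units in at least 3 libraries. All 12 libraries entered 1 limma-trend model (limma 3.58.1, R 4.3.3) with the 4 groups and the code series (residual df 6, prior df 5.02), checked on simulated data, with Benjamini-Hochberg adjustment over all 10816 genes and a threshold of 0.05. The 20 genes named with their values are those with the 3 smallest p-values in each of the 6 comparisons of treatment or genotype, the highest mean of each role and the 3 largest differences of each code series contrast. The genes, lists and rules were chosen with earlier results of these data known. Transcript lengths are from GENCODE M21 (97.1% of tested genes). Alternatives were another pseudocount, no filter, quantile and equal-total scaling, library weights, no code series term, a replicate block, and leaving out R-09 or each library.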

Additional observations from a re-analysis of the deposited data

How the results depend on the processing

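The number of the 45 genes past the threshold was 0 in all 6 comparisons of treatment or genotype under all 20 alternatives. Of 631 alternative values of single genes, 619 kept their direction and side of the threshold, 6 lost a call and 3 gained one. The other 3, all for Mcm10 and the averaged IFN-γ effect, turned from 0.06 to -0.034 without WT naive 1, -0.054 without WT naive 3 and -0.028 without KO naive 3, in a range of -0.054 to 0.25.

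Counts over all genes moved more, and the cause was not tested. For the IFN-γ effect in WT (1 gene) they were 5 with a pseudocount of 10, 2 without the filter, 4 after quantile normalization, 9 with library weights, 0 without the code series term, 0 with the replicate block, 2 without R-09, and 0 to 13 leaving out 1 library. In KO (0 genes) they were 7 after quantile normalization and 7 with weights, and 0 to 7 leaving out 1 library. For the averaged effect (7 genes) they were 13 with a pseudocount of 10, 29 after quantile normalization, 42 with weights, 0 without the code series term, 21 without R-09 and 3 to 22 leaving out 1 library. Without R-09, 2 genes were called between genotypes in treated HSCs and 1 in the interaction. Leaving out 1 library gave 0 to 2 in naive HSCs, 0 to 1 in treated HSCs and 0 to 2 for the interaction. R-07 against FL-06 (386 genes) gave 838 with weights, 169 with the block, 237 without R-09 and 2 to 932 leaving out 1 library, and R-09 against FL-06 gave 6448 to 8225.

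Among the 45 genes, R-07 calls (2) were 4 with weights, 0 with the block, 0 without R-09 and 0 to 8 leaving out 1 library, and R-09 calls (34) were 30 to 36. Lig1 in R-07 had an adjusted p of 0.0912 with the block. Median log2 differences over the 45 were 0.59 after quantile normalization and 0.61 after equal totals for R-09 (0.34), 0.18 after equal totals for R-07 (0.07), and -0.074 without R-09 for the naive genotype difference (0.03). Leaving out 1 library, they spanned 0.07 to 0.14 for the averaged effect, 0.02 to 0.13 in KO, 0.10 to 0.16 in WT, -0.072 to 0.076 and -0.096 to -0.017 for the naive and treated genotype differences, -0.12 to 0.050 for the interaction, 0.29 to 0.44 for R-09 and -0.0013 to 0.15 for R-07. The count of genes higher in all combinations (10, against 4.52% of all genes) was 12 after quantile normalization (4.23%) and with equal totals (4.82%). It was 16 without R-09 (17.6% of all genes), which leaves fewer combinations. With WT naive 1 or 2 or WT IFN-γ 1 or 2 left out it was 7 to 10 (4.12 to 4.55% of all genes). These are the 4 libraries whose removal keeps all 5 combinations. Leaving out either R-07 library leaves the other to its own term.

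Whether the replicate numbers in the titles pair the libraries could not be told. The check correlated deviations from group means with the code series left in. There r was negative wherever an R-09 library met one of another series. Of 18 same-numbered pairs 8 correlated above 0.1, the range was -0.88 to 0.83, and 3 libraries correlated best with their own number. Depth limits WT naive 2, where 3 reads would be worth 102 units against 1.02 to 5.22 units elsewhere.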

Other observations

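Genes of G2 and mitosis were tested as a list of 16. None passed the threshold for the IFN-γ effect averaged over genotypes (limma). An unadjusted p under 0.05 was found for 3, all higher, against 4.05% of all genes higher and 2.01% lower. The median was 0.14 on the log2 scale, against 0.07 over all genes. Cdc20, an activator of the anaphase-promoting complex, differed by 0.53 (SE 0.230, unadjusted p = 0.0436, limma), and the proliferation marker Mki67 by 0.18 (SE 0.123, unadjusted p = 0.174, limma).

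Between code series this list split. In R-09 against FL-06, 9 of the 16 were higher (Aurka, Aurkb, Birc5, Ccna2, Ccnb1, Ccnb2, Cdc20, Cdk1 and Plk1) and 6 lower (Cenpe, Cenpf, Kif11, Mki67, Top2a and Tpx2), with Bub1 past no threshold, where 35.6% of all genes were higher and 32.3% lower. The 9 higher genes had transcripts of 1531 to 4375 nt (median 2199 nt), and the 6 lower ones of 4365 to 11130 nt (median 6566 nt). Mki67 lay between 332 and 630 units in R-09 and between 17574 and 24051 units in the other 8 libraries, while Cdc20 was 5.14-fold and Ccnb1, which encodes cyclin B1, 3.59-fold higher in R-09 than in FL-06. Summed over the list, R-09 libraries had 24944 to 33489 units and FL-06 libraries 52485 to 59518 units.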
